A study of Mus musculus with 10 samples.

Results

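The step from haemangioblast (HB) to the first haemogenic endothelium (HE1) was described by comparing the 2 nuclear RNA-seq libraries of HE1 with the 2 libraries of HB, 4 of the 10 libraries of the series. Libraries were assigned to a stage by their labels, and each statement was then checked in the HE1 libraries one at a time, because they differed from each other more than the libraries of HB did. All cells derived from the mouse ES cell line HM-1 and were differentiated in medium with serum, and the labels give no difference in genotype between the stages. HB cells came from embryoid bodies grown for 3 d and were enriched on magnetic beads for FLK1, the VEGF receptor encoded by Kdr. HE1 cells were obtained by replating HB cells in blast culture, in a medium that held VEGF and IL-6, and were sorted as KIT+ TIE2+ CD41- cells. The remaining stages of the series were undifferentiated ES cells, a later haemogenic endothelium that was KIT+ TIE2+ CD41+ (HE2) and haematopoietic progenitors that were KIT+ TIE2- CD41+ (HP). The material is therefore 1 cell line in culture, HB was enriched on a single antigen, and the 2 libraries of a stage are described in the study as biologically independent, although the labels do not name separate cultures. The p-values measure only the spread between the 2 libraries of a stage, estimated jointly over all 10 libraries of the series. A gene whose libraries differ within ES, HE2 or HP can therefore miss a call although its HB and HE1 libraries are close.

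FLK1+ mesoderm leaves the primitive streak under the control of T-box, homeobox and NODAL pathway genes, and gives rise to both blood and vessel cells. ETS, SOX and GATA factors then switch on the genes of the vessel wall, such as the junction protein VE-cadherin and the angiopoietin receptor TIE2. Haemogenic endothelium is the part of this endothelium from which blood cells bud, and CD41 on the surface marks its later, blood-committed stage. RNA was taken from nuclei, so that a level is the amount of a transcript in the nucleus, and in such bulk samples fewer cells of a type and less RNA per cell cannot be told apart.

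Between 24920434 and 36045700 fragments were counted on genes in the 4 libraries, and a count of 3 corresponded to between 0.0832 and 0.12 CPM (counts scaled to the size of the library), a limit which covers counting error only. Across genes, log2 CPM of the HE1 libraries correlated with Pearson's r = 0.967 and that of the HB libraries with r = 0.988. Of 10660 genes that reached 9 CPM in an HE1 library, 4.86% differed at least 2-fold between the HE1 libraries, against 0.374% of 10442 genes for HB. For HE2 it was 4.49% of 10548 genes, so that such a gap was not particular to HE1. Levels below are CPM scaled with TMM (edgeR's trimmed mean method) and are given for replicate 1 and then replicate 2, whereas differences are log2 fold changes of HE1 over HB with their standard error, tested by the quasi-likelihood method of edgeR, and p-values were adjusted (Benjamini-Hochberg) over all 22596 genes tested.

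A gene was called when its adjusted p-value was below 0.05 and HE1 and HB differed 2-fold or more. Of the genes tested, 2872 were higher in HE1 (12.7%) and 1850 were lower (8.19%), with a median log2 fold change of 0.04 over all genes. Of the genes called higher, 2103 stood at least 2-fold above both HB libraries in each HE1 library (9.31% of the genes tested), and 1309 of those called lower stood at least 2-fold below (5.79%). A model that kept only 1 HE1 library, and took its spread from the other stages, was then fitted with each of them. The call was kept with each library alone for 1620 of the genes called higher (7.17% of the genes tested) and 1146 of those called lower (5.07%). Replicate 2 was alone in keeping the call for 759 higher genes and replicate 1 for 354. By itself, a fit with replicate 1 alone called 9.98% of the genes higher and 7.52% lower, and one with replicate 2 alone 13.4% and 9.55%. Leaving out HB replicate 1 or replicate 2 gave 1857 and 1469 genes called higher. Below, a gene is said to hold in both libraries when it passed the criterion of 2-fold separation.

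Sox17, Mecom, Meis1 and Cdh5, the markers of HE1, rose in both HE1 libraries. Sox17, which lies on chromosome 1 (mm10, 4490931-4497354, minus strand) and encodes a SOX factor of endoderm and arterial endothelium, had 14.6 and 12.4 CPM in HB and 96.3 and 77.2 in HE1 (log2 fold change 2.68 ± 0.63, adjusted p = 0.0092). Mecom (chromosome 3, 29951296-30548008, minus strand) encodes the zinc finger factor EVI1, which is needed by blood stem cells, and had 8.10 and 6.81 CPM in HB and 81.5 and 54.5 in HE1 (log2 fold change 3.19 ± 0.53, adjusted p = 0.0014). Meis1 (chromosome 11, 18879817-19018985, minus strand), a homeobox partner of HOX factors, had 4.66 and 3.55 CPM in HB and 53.01 and 35.1 in HE1 (log2 fold change 3.43 ± 0.34, adjusted p = 6.9e-05). Cdh5 (chromosome 8, 104101625-104144511, plus strand) encodes VE-cadherin, which joins endothelial cells to each other, and had 109 and 87.6 CPM in HB and 1430 and 797 in HE1 (log2 fold change 3.50 ± 0.40, adjusted p = 1.8e-04). For each of the 4, both HE1 libraries stood above both HB libraries, as they did for 32.9% of all genes tested (32.6% stood below), and replicate 1 was the higher of the HE1 pair. Each call was kept with either HE1 library alone. Without 1 HB library the call on Sox17 was lost, with an adjusted p of 0.052 without replicate 1 and 0.077 without replicate 2, and those on Mecom, Meis1 and Cdh5 were kept.

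The 4 markers were not alike in the stages after HE1. Mean CPM of Sox17, Mecom and Cdh5 was lower in HE2 (19.7, 22.1 and 637) and lower again in HP (4.86, 4.80 and 149), whereas that of Meis1 was 113 in HE2 and 93.7 in HP. Sox17 was higher in HE1 than in HE2 by a log2 fold change of 2.14 ± 0.61 (adjusted p = 0.046) and Meis1 was lower (-1.36 ± 0.30, adjusted p = 0.021), in a comparison that called 5.38% of all genes higher and 3.26% lower in HE1. For Mecom (1.62 ± 0.49, adjusted p = 0.054) and Cdh5 (0.81 ± 0.37, adjusted p = 0.14) the difference from HE2 did not pass the test. Against HP, Sox17 (4.18 ± 0.68), Mecom (3.84 ± 0.54) and Cdh5 (2.91 ± 0.39) were all higher in HE1 and Meis1 was lower (-1.09 ± 0.30, adjusted p = 0.023), where the share of genes called was 11.2% higher and 5.35% lower.

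Of 27 transcription factors of endothelium, all were tested, 15 were higher in HE1 and 2 were lower, against 12.7% and 8.19% of all tested genes. The median log2 fold change was 1.45 against 0.04 over all genes. Of those that rose, 12 held in both HE1 libraries and 11 kept the call with each library alone, and 11 and 10 were called without HB replicate 1 or 2. Epas1, the hypoxia factor HIF2-alpha of endothelium, rose the most, from 7.73 and 7.71 CPM in HB to 170.3 and 89.4 in HE1 (log2 fold change 4.07 ± 0.59, adjusted p = 6.6e-04). The flow-responsive factor Klf2 had 20.9 and 12.6 CPM in HB and 134 and 61.4 in HE1 (log2 fold change 2.55 ± 0.44, adjusted p = 0.0019). The ETS genes Erg (14.04 and 14.3 in HB, 83.4 and 61.1 in HE1), Elk3 (40.7 and 43.7 in HB, 224 and 151 in HE1) and Ets1 (114 and 129.7 in HB, 564 and 442 in HE1) all rose, by log2 fold changes of 2.35 ± 0.24, 2.15 ± 0.24 and 2.04 ± 0.30. Sox18, a relative of Sox17, rose by 1.89 ± 0.36 (23.5 and 22.5 CPM in HB, 110.3 and 60.1 in HE1) and Foxo1, a forkhead factor that acts downstream of growth factor signals, by 1.64 ± 0.18 (26.9 and 23.7 CPM in HB, 92.3 and 65.2 in HE1). In all of these the HE1 libraries lay above both HB libraries.

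Not all of these factors rose, and for some the HE1 libraries did not tell the same story. Etv2, the ETS factor that starts the vascular programme in mesoderm, fell from 55.5 and 69.5 to 3.78 and 5.25 CPM (log2 fold change -3.79 ± 0.29, adjusted p = 1.8e-05), and Hey1, a NOTCH target, fell from 58.5 and 71.99 to 12.3 and 13.4 CPM (log2 fold change -2.35 ± 0.23, adjusted p = 7.5e-05). Both kept the call with either HE1 library. The blood and endothelial regulators Gata2 (65.8 and 81.7 CPM in HB, 93.5 and 53.5 in HE1), Tal1 (145 and 171 in HB, 185 and 109 in HE1) and Hhex (43.5 and 45.2 in HB, 49.5 and 31.5 in HE1) were not called. In these 3 genes HE1 replicate 1 lay above both HB libraries and replicate 2 below them. Ets2 was called higher (83.4 and 87.5 CPM in HB, 269.7 and 101 in HE1), but only replicate 1 was far from HB. Without that library its adjusted p was 0.39, and with limma-voom it was 0.057. Fli1 (65.3 and 69.3 CPM in HB, 236 and 133 in HE1) and Lyl1 (10.6 and 9.77 CPM in HB, 36.6 and 21.3 in HE1) were called higher, by 1.45 ± 0.22 and 1.502 ± 0.36, but with replicate 2 alone their log2 fold changes were 0.94 and 1.02 and both calls were lost. Bcl6b (22.7 and 17.6 CPM in HB, 127 and 97.5 in HE1) was separated from HB in both libraries, yet its adjusted p of 0.029 rose to 0.060 and 0.077 with replicate 1 or replicate 2 alone. Nr2f2, the venous factor COUP-TFII, rose (2.54 and 1.60 CPM in HB, 19.1 and 6.67 in HE1, log2 fold change 2.63 ± 0.53, adjusted p = 0.0043), a call that was lost without HB replicate 2 (0.051), and Foxc2, a forkhead factor of mesoderm and arteries, had 4.46 and 3.94 CPM in HB and 10.9 and 10.7 in HE1 (log2 fold change 1.36 ± 0.72, adjusted p = 0.17).

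**Figure D1:**
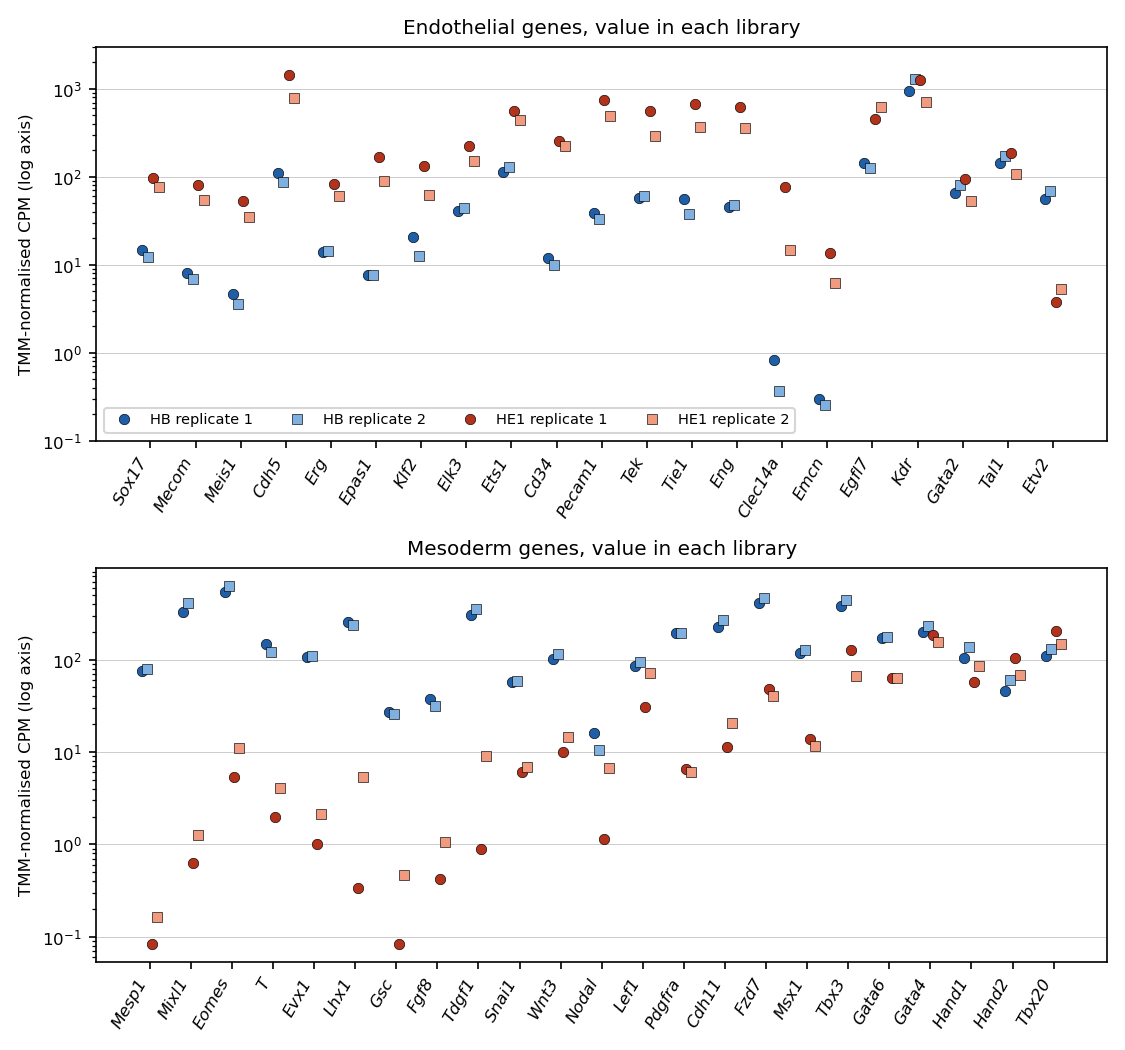
TMM-normalised CPM (log axis) of endothelial genes (upper panel) and mesoderm genes (lower panel) in each HB library (blue) and HE1 library (red). Circles are replicate 1 and squares replicate 2. Cdh5 lies between 87.6 and 109 CPM in HB and between 797 and 1430 CPM in HE1, whereas Mixl1 lies between 332 and 406 CPM in HB and between 0.631 and 1.25 CPM in HE1.

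The genes of the endothelial surface and of its junctions formed the most uniform group. Of 31 such genes, 30 were tested, and all 30 had a positive log2 fold change (51.3% of all genes did). Of the 30, 28 were called higher and none lower (12.7% and 8.19% of all genes), with a median log2 fold change of 3.20. Of the 28, 27 held in both HE1 libraries and 23 kept the call with each library alone. Without HB replicate 1 or 2, 23 and 21 genes of the list were called. The median log2 ratio to the HB mean was 3.33 for HE1 replicate 1 and 2.91 for HE1 replicate 2, and replicate 1 was the higher in 28 of the 31 genes.

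The adhesion molecule Pecam1 had 39.3 and 32.9 CPM in HB and 745 and 491 in HE1 (log2 fold change 4.10 ± 0.25, adjusted p = 5.7e-06), and the sialomucin Cd34 had 11.96 and 10.02 CPM in HB and 255 and 225 in HE1 (log2 fold change 4.45 ± 0.20, adjusted p = 2.0e-06). Among receptors, Tie1 rose from 56.5 and 37.4 to 673 and 369.9 CPM (3.47 ± 0.32), Eng, a TGF-beta co-receptor, from 45.8 and 47.9 to 623 and 361 (3.39 ± 0.32), S1pr1, a sphingosine phosphate receptor, from 13.3 and 16.2 to 158 and 111 (3.19 ± 0.26), and Robo4, a guidance receptor of vessels, from 6.18 and 4.93 to 91.1 and 65.8 (3.82 ± 0.88). In each of these the lower HE1 library stood at least 2-fold above the higher HB library. The phosphatase gene Ptprb, whose product acts on TIE2 and VE-cadherin, rose from 69.7 and 58.3 to 602 and 485 CPM (3.09 ± 0.52). Clec14a, a C-type lectin of endothelium, had under 1 CPM in both HB libraries (0.826 and 0.366) and 76.7 and 14.9 in HE1 (log2 fold change 6.28 ± 0.98, adjusted p = 0.0011), which is the largest increase in the list and also one of the largest differences between the HE1 libraries. The sialomucin Emcn rose from 0.297 and 0.253 to 13.7 and 6.14 CPM (5.15 ± 0.75). Egfl7, a secreted protein of vessels, was 1 of 3 that were higher in replicate 2, with Jam2 and Procr, with 143 and 125 CPM in HB and 450.3 and 628 in HE1 (2.01 ± 0.33).

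A few genes were exceptions. Jam2, a junction adhesion molecule, was the one called gene that did not hold in both libraries (1.29 and 0.817 CPM in HB, 1.81 and 3.20 in HE1, 1.28 ± 0.37), and its call was lost with replicate 1 alone (adjusted p = 0.20) and without HB replicate 2 (0.20). Aplnr, the apelin receptor, which mesoderm also expresses, had 130.0 and 149 CPM in HB and 159 and 124 in HE1 (log2 fold change 0.02 ± 0.51, adjusted p = 0.99). Cldn5, a claudin of tight junctions, had 3.50 and 2.76 CPM in HB, 10.8 and 4.95 in HE1 and was not called (adjusted p = 0.16). Icam2 (12.8 and 11.4 CPM in HB, 67.3 and 42.2 in HE1), Stab1 (30.99 and 17.2 in HB, 160.0 and 118 in HE1), Nos3, the endothelial nitric oxide synthase (25.7 and 20.9 in HB, 142 and 90.1 in HE1), and Vwf, von Willebrand factor (14.9 and 14.3 in HB, 40.7 and 39.9 in HE1), all stood 2-fold above HB in both libraries but lost the call with replicate 2 alone, at adjusted p-values of 0.082, 0.052, 0.11 and 0.063. With replicate 1 alone Nos3 (0.055) and Vwf (0.074) lost it too. Without HB replicate 1 or 2, Robo4 (adjusted p = 0.052 and 0.075) and Mmrn2 (0.059 and 0.085) also fell just short.

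**Figure D2:**
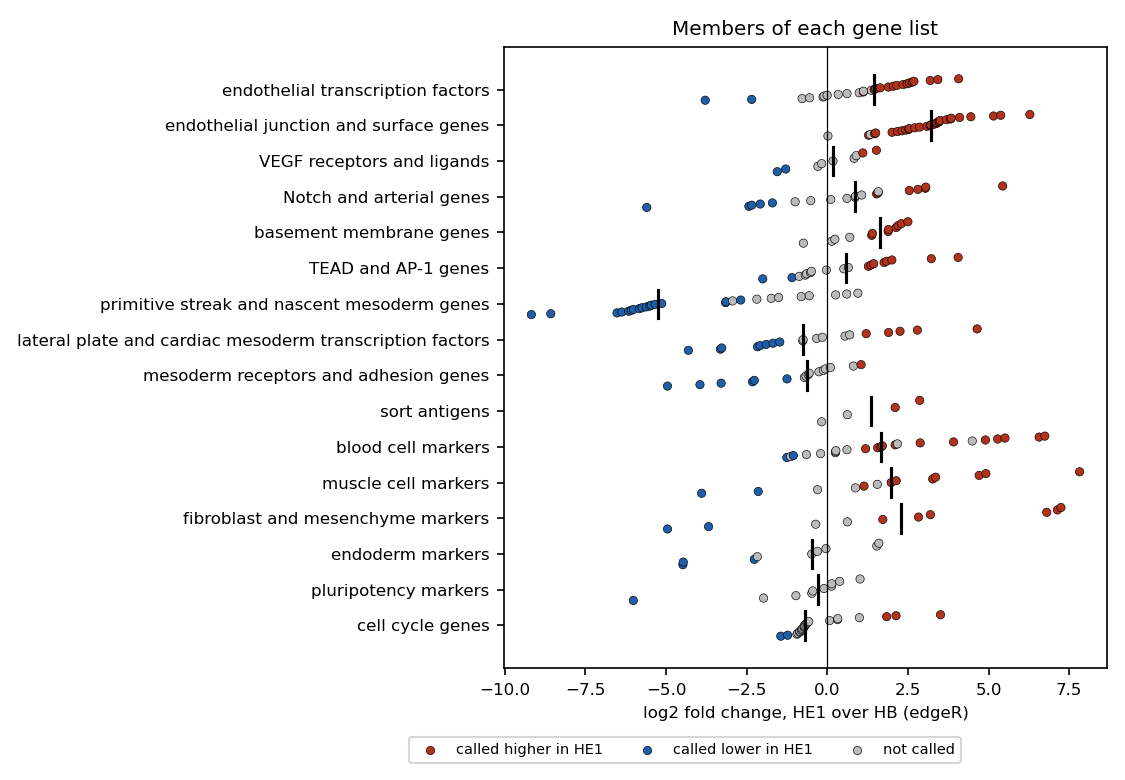
Log2 fold change of HE1 over HB (x axis, edgeR) for each tested member of the gene lists (1 row per list). Red points were called higher, blue points lower and grey points were not called, and the black bar is the median of the list. The medians run from 3.20 for endothelial junction and surface genes to -5.23 for primitive streak and nascent mesoderm genes.

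Of 9 VEGF receptors and ligands, 2 were called higher and 2 lower, against 12.7% and 8.19% of all tested genes, and no more is read from counts this small. With either HB library left out, none was called higher and 2 were called lower. Kdr, whose product was the antigen used to enrich HB, had 956 and 1284 CPM in HB and 1264 and 718 in HE1 (log2 fold change -0.18 ± 0.27, adjusted p = 0.65), so that replicate 1 lay between the HB libraries and replicate 2 below them. Flt4, the receptor of VEGF-C, rose from 80.99 and 81.2 to 226 and 239.6 CPM (log2 fold change 1.52 ± 0.39, adjusted p = 0.014) and kept the call with either HE1 library, though not without HB replicate 1 (adjusted p = 0.075) or 2 (0.086). Flt1 rose from 130.1 and 133 to 308 and 256 CPM, with an adjusted p of 0.045 that became 0.080 and 0.14 with replicate 1 or 2 alone, and 0.17 and 0.18 without HB replicate 1 or 2. The ligand genes Vegfb (44.7 and 58.5 CPM in HB, 18.7 and 16.6 in HE1) and Vegfc (28.4 and 35.3 in HB, 12.6 and 13.4 in HE1) fell (log2 fold changes of -1.55 ± 0.26 and -1.29 ± 0.25), in both libraries.

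Among 20 genes of NOTCH signalling and arterial identity, 7 rose and 5 fell, against 12.7% and 8.19% of all tested genes. Neither the receptors nor the ligands went 1 way. NOTCH receptors on the cell surface are cut when a DLL or JAG ligand of a neighbouring cell binds them, and the freed fragment switches on HES and HEY genes. The receptor genes Notch1 (196 and 179.6 CPM in HB, 655 and 465 in HE1) and Notch4 (27.8 and 19.5 in HB, 149.9 and 181 in HE1) rose by 1.57 ± 0.34 and 2.81 ± 0.73, whereas Notch3 fell from 534 and 636 to 159 and 200.4 CPM (-1.70 ± 0.27) and Notch2 (230.1 and 263 CPM in HB, 129.8 and 117 in HE1) passed the test at just under 2-fold lower (adjusted p = 5.9e-04). With replicate 1 alone the adjusted p of Notch4 was 0.053, and without HB replicate 1 or 2, 5 and 3 genes of the list were called higher in place of 7. The ligand Jag2 rose (26.1 and 18.2 CPM in HB, 61.04 and 66.5 in HE1, 1.53 ± 0.37) and Dll1 fell (22.7 and 12.98 CPM in HB, 2.52 and 4.06 in HE1, -2.43 ± 0.46), while the arterial ligand Dll4 had 3.70 and 3.35 CPM in HB, 7.27 and 7.46 in HE1 and was not called (adjusted p = 0.37). The target Hes1 fell from 84.6 and 98.7 to 21.6 and 21.8 CPM (log2 fold change -2.08 ± 0.23, adjusted p = 1.2e-04), as Hey1 did, and Hey2 and Nrarp were not called. Gja4, a connexin of arteries, rose from 8.86 and 7.29 to 70.8 and 62.98 CPM (log2 fold change 3.05 ± 0.45, adjusted p = 7.4e-04), as did the BMP9 receptor gene Acvrl1 (22.1 and 21.8 CPM in HB, 163 and 92.2 in HE1, 2.54 ± 0.61) and Sema3g (1.35 and 1.18 CPM in HB, 10.8 and 10.1 in HE1, 3.04 ± 0.62). The arterial ligand Efnb2 had 199 and 239 CPM in HB and 249.9 and 222 in HE1 and was not called. The largest fall of the list was that of the chemokine receptor gene Cxcr4, from 75.3 and 96.4 to 0.420 and 3.00 CPM (log2 fold change -5.60 ± 0.63, adjusted p = 1.6e-04), which held in both libraries although replicate 2 kept the higher remainder.

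Genes of the basement membrane, the sheet of matrix on which endothelium rests, rose in 8 of 12 and fell in none, with a median log2 fold change of 1.64, and all 8 kept the call with either HE1 library. Among all tested genes 12.7% rose and 8.19% fell. The collagen IV genes Col4a1 (618 and 726 CPM in HB, 3348 and 2544 in HE1) and Col4a2 (363 and 423 in HB, 2003 and 1587 in HE1) rose by 2.13 ± 0.41 and 2.19 ± 0.40. Nidogen Nid1 rose from 108 and 126 to 667 and 651 CPM (2.50 ± 0.40), the collagen XVIII gene Col18a1 from 275 and 238 to 1469 and 1048 (2.29 ± 0.24) and the perlecan gene Hspg2 from 502 and 522 to 1968 and 1814 (1.89 ± 0.29). Fibronectin Fn1 was the one member with a negative value, at 8170 and 9691 CPM in HB and 6903 and 3773 in HE1 (log2 fold change -0.74 ± 0.31, adjusted p = 0.088). With replicate 2 alone Fn1 was called lower, at an adjusted p of 0.0073.

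TEAD factors with their co-activators YAP and TAZ, and the AP-1 factors of the JUN and FOS families, were listed because they act at enhancers of mesoderm and endothelium. Of 18 such genes and their targets, 8 rose and 2 fell, and 4 of the 8 kept the call with each HE1 library. Without HB replicate 1 or 2, 6 and 4 genes of the list were called higher. The TEAD targets Ccn2 (26.4 and 19.2 CPM in HB, 184 and 242 in HE1), Ccn1 (79.9 and 52.8 in HB, 263 and 268 in HE1) and Amotl2 (176 and 151 in HB, 466 and 419.8 in HE1) rose by 3.22 ± 0.48, 2.000 ± 0.28 and 1.44 ± 0.24. Among the factors, Tead4 fell from 39.8 and 45.4 to 20.1 and 19.8 CPM (-1.09 ± 0.23), Tead1 (170.0 and 169 CPM in HB, 262 and 271 in HE1) passed the test at a change under 2-fold (log2 fold change 0.65 ± 0.18, adjusted p = 0.020), and Yap1 (306 and 339 CPM in HB, 247 and 203 in HE1) was not called either. Fos fell from 119.6 and 84.04 to 29.8 and 21.1 CPM (log2 fold change -2.002 ± 0.31, adjusted p = 9.4e-04), while Fosl2 rose from 50.8 and 47.2 to 104 and 146 CPM (1.35 ± 0.24). Fosl1, Atf3, Batf3 and Wwtr1, the TAZ gene, were called higher but did not keep the call with each HE1 library. Fosl1 lost it with replicate 1 alone (adjusted p = 0.071) and Wwtr1 with replicate 2 alone (log2 fold change 0.97), whereas Atf3 (adjusted p = 0.057 and 0.064) and Batf3 (0.084 and 0.077) lost it with replicate 1 or replicate 2 alone. Fosl2 (0.013 and 0.0020) kept it with each. Without HB replicate 2 the same 4 genes lost the call (0.098 for Fosl1, 0.052 for Wwtr1, 0.15 for Atf3 and 0.24 for Batf3).

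Promoters are shown for the markers that the RefSeq table holds, and for 3 endothelial surface genes that rose in both libraries and 1 mesoderm gene that fell, as the letters upstream of genes that moved together. Each line gives the 250 bases before the annotated start, 5′ to 3′ on the strand of the gene (GRCm38.p6). Capitals mark the letters AGGAAG, 1 form of the sites bound by ETS factors, or AGGTGTNA, 1 form of those bound by T-box factors. Both strands were searched, and other forms of these sites were not. Mecom has a pair of annotated starts, at chr3:30509760-30510009 and chr3:30013205-30013454, both on the minus strand. The others are Meis1 (chr11:19018970-19019219, minus strand), Emcn (chr3:137340828-137341077, plus strand), Cd34 (chr1:194938571-194938820, plus strand), Robo4 (chr9:37401722-37401971, plus strand) and T (chr17:8434173-8434422, plus strand).
Mecom upstream start: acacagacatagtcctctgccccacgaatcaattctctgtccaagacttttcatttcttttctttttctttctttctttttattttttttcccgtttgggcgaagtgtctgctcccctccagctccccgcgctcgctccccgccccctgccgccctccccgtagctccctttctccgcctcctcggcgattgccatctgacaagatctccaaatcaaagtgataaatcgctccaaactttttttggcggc
Mecom downstream start: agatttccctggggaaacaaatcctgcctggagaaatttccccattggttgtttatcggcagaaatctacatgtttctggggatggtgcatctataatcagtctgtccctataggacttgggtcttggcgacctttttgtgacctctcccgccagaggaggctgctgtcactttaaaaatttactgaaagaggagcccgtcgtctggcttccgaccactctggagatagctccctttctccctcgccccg
Meis1: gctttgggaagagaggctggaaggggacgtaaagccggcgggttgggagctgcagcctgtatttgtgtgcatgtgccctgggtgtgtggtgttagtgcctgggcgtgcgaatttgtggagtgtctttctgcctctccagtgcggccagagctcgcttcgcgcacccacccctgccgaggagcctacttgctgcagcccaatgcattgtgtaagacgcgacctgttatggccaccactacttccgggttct
Emcn: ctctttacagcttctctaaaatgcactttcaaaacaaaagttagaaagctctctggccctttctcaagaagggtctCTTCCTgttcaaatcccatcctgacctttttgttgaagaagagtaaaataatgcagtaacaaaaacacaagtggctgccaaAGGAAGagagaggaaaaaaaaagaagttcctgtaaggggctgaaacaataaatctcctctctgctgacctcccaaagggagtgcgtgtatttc
Cd34: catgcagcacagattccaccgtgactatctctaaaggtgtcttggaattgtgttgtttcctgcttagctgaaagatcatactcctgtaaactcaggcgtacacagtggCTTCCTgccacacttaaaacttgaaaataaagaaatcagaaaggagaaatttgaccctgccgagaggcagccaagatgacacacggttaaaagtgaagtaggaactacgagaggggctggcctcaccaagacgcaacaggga
Robo4: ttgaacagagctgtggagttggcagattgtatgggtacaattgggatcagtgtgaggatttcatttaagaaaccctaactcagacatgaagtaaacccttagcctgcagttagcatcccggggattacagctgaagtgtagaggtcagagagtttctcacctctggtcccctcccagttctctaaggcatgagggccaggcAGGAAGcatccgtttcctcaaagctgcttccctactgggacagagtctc
T: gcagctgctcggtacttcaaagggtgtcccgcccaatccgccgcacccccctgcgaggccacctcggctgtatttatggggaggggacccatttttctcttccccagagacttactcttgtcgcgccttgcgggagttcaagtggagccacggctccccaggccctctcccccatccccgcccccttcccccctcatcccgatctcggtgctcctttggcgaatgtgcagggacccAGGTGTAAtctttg

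The letters AGGAAG, called ETS letters here, are in none of the Mecom and Meis1 windows, which may still hold ETS sites of another form. They are in the Emcn window 2 times, and in the Cd34 and Robo4 windows once each. The T window holds the T-box letters once, and T is the only 1 of the 20 primitive streak and nascent mesoderm genes with a window to hold them. Over 32851 windows of this length, 29.5% held the ETS letters and 2.68% the T-box letters. Of the 14 endothelial junction and surface genes with a window, 9 held the ETS letters (Calcrl, Cd34, Egfl7, Emcn, Eng, Robo4, Stab1, Stab2 and Tie1), of 16 endothelial transcription factors 5 did, and of 20 primitive streak and nascent mesoderm genes 6 did. Among all tested genes with a window the share with the ETS letters was 32.4%, among those called higher 37.1% and among those called lower 28.5%. For the T-box letters these shares were 2.565%, 2.5% and 1.79%. These are counts of letters and were not tested.

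Most genes of the primitive streak and of nascent mesoderm fell. Of 26 genes, 17 were called lower and none higher, and 3 that were not called (Wnt3a, Cdx2 and Apln) had positive values, with a median log2 fold change of -5.23, and all 17 held in both HE1 libraries and kept the call with each alone. For comparison, 8.19% of all tested genes were called lower and 12.7% higher. The homeobox gene Mixl1 fell from 332 and 406 CPM in HB to 0.631 and 1.25 in HE1 (log2 fold change -8.57 ± 0.35, adjusted p = 1.4e-06), and the T-box gene Eomes, which starts mesoderm and endoderm, from 546 and 630.1 to 5.42 and 10.96 (log2 fold change -6.16 ± 0.43, adjusted p = 1.2e-05). Mesp1, the basic helix-loop-helix gene of early cardiac and haemangiogenic mesoderm, had 74.6 and 78.4 CPM in HB and 0.0841 and 0.165 in HE1, which is 2 and 5 counted fragments. T, the brachyury gene, fell from 148 and 122 to 1.98 and 4.09 CPM (log2 fold change -5.46 ± 0.40, adjusted p = 1.4e-05). Evx1, a homeobox gene of the posterior streak, fell from 107 and 111 to 1.009 and 2.15 CPM (-6.08 ± 0.62), Lhx1, a LIM homeobox gene, from 255 and 235 to 0.336 and 5.38 (-6.37 ± 0.74) and Gsc, goosecoid, from 27.4 and 26.1 to 0.0841 and 0.462 (-6.52 ± 0.55).

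The list also holds genes of NODAL, FGF and WNT signalling, some of which were called lower and some not. Of those called, Tdgf1, the NODAL co-receptor CRIPTO, had 304 and 353 CPM in HB and 0.883 and 9.04 in HE1 (log2 fold change -6.01 ± 0.76, adjusted p = 3.1e-04), and Lefty2, a NODAL inhibitor, had 54.2 and 43.2 CPM in HB, 0.589 and 2.08 in HE1 (-5.13 ± 0.39). Fgf8 fell from 37.5 and 31.2 to 0.420 and 1.06 CPM (-5.50 ± 0.39), Wnt3 from 101 and 116 to 9.92 and 14.6 (-3.14 ± 0.37) and Sp5, a WNT target, from 63.6 and 53.5 to 0.757 and 2.08 (-5.33 ± 0.47). Snai1, which drives the transition from epithelium to mesenchyme, fell from 56.9 and 58.6 to 6.05 and 6.93 CPM (-3.15 ± 0.22). The remainder was unequal. HE1 replicate 1 was below replicate 2 in 22 of the 26 genes, and in 16 of them replicate 2 was at least 2-fold higher (as CPM + 0.1), as for Lhx1 and Tdgf1.

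That inequality decided 3 calls. Nodal (16.1 and 10.6 CPM in HB, 1.14 and 6.70 in HE1), Tbx6 (10.4 and 8.45 in HB, 1.47 and 5.08 in HE1) and Wnt8a (3.04 and 1.55 in HB, 0 and 0.561 in HE1) had negative values at adjusted p-values of 0.055, 0.054 and 0.053, and were called lower when replicate 1 stood alone (0.0043, 0.0065 and 0.0095) but not when replicate 2 did (0.13, 0.13 and 0.092). All 3 were called lower by limma-voom, and Tbx6 and Wnt8a by DESeq2. Lef1, the nuclear mediator of WNT signals, had 85.6 and 94.1 CPM in HB and 30.6 and 71.7 in HE1 and was not called (adjusted p = 0.32), and Apln, the ligand of the apelin receptor, had 7.86 and 7.29 CPM in HB, 18.1 and 11.2 in HE1 (adjusted p = 0.064) and was called higher with replicate 1 alone (0.039).

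Transcription factors of lateral plate and cardiac mesoderm were less uniform. Of 20, 19 were tested, 8 fell and 5 rose, against 8.19% and 12.7% of all tested genes. The median log2 fold change was -0.75. Without HB replicate 1 or 2, 3 and 2 genes were called higher. The homeobox genes Msx1 (118 and 126 CPM in HB, 13.7 and 11.6 in HE1), Msx2 (57.2 and 80.6 in HB, 9.92 and 20.7 in HE1) and Isl1 (7.10 and 6.84 in HB, 0.631 and 0.759 in HE1) fell (log2 fold changes of -3.27 ± 0.32, -2.17 ± 0.36 and -3.31 ± 0.57). Tbx3 fell from 377 and 447 to 127 and 67.2 CPM (-2.08 ± 0.36) and Gata6, a GATA factor of heart and endoderm, from 173 and 177 to 63.6 and 62.6 (-1.47 ± 0.27). By contrast Gata4 (199 and 229 CPM in HB, 184 and 156 in HE1), Hand1 (104 and 137 in HB, 57.8 and 85.7 in HE1), Hand2 (46.1 and 59.6 in HB, 103 and 67.8 in HE1) and Tbx20 (110.5 and 129.8 in HB, 203 and 148 in HE1) were not called. Their log2 fold changes were -0.33 ± 0.34, -0.75 ± 0.34, 0.69 ± 0.26 and 0.55 ± 0.22. Mef2c, a MADS box factor of heart, vessels and blood, rose from 10.9 and 9.04 to 62.3 and 32.8 CPM (log2 fold change 2.25 ± 0.29, adjusted p = 3.7e-04) and held in both libraries, and Tbx4, Wt1, Gata5 and Nkx2-5 were called higher at levels under 8 CPM. Each of these 4 lost the call without at least 1 HB library, Nkx2-5 lost it with either HE1 library alone (adjusted p = 0.064 and 0.078) and Tbx4 with replicate 1 alone (0.15). Foxf1 fell (21.2 and 28.9 CPM in HB, 7.86 and 5.64 in HE1), with an adjusted p of 0.063 with replicate 1 alone.

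Among 16 receptors and adhesion molecules of mesoderm, 6 fell, all of which kept the call with each HE1 library, and 1 rose. Over all tested genes, 8.19% fell and 12.7% rose. Pdgfra, the receptor that marks paraxial and cardiac mesoderm, fell from 193 and 196 to 6.52 and 6.01 CPM (log2 fold change -4.96 ± 0.29, adjusted p = 4.5e-06) and the WNT receptor gene Fzd7 from 408 and 461 to 48.4 and 40.3 (log2 fold change -3.29 ± 0.18, adjusted p = 3.9e-06). Cdh11, a cadherin of mesenchyme, fell from 227 and 272 to 11.4 and 20.8 CPM (-3.95 ± 0.41), and Bmp4 from 89.7 and 140.4 to 48.5 and 48.2 (-1.25 ± 0.27). Without HB replicate 2 Bmp4 stood at a log2 fold change of -0.93 (adjusted p = 0.051) and was not called. N-cadherin, Cdh2, had 272 and 307 CPM in HB and 144 and 248 in HE1 and was not called (adjusted p = 0.19). E-cadherin, Cdh1, had 48.7 and 14.6 CPM in HB and 9.79 and 48.03 in HE1, so that the libraries of each stage were far apart and overlapped between the stages. Fgfr3 was called higher (4.53 and 4.03 CPM in HB, 8.20 and 9.44 in HE1, adjusted p = 0.019), which was lost with replicate 1 alone (0.076) and without HB replicate 1 (0.078) or 2 (0.14).

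**Figure D3:**
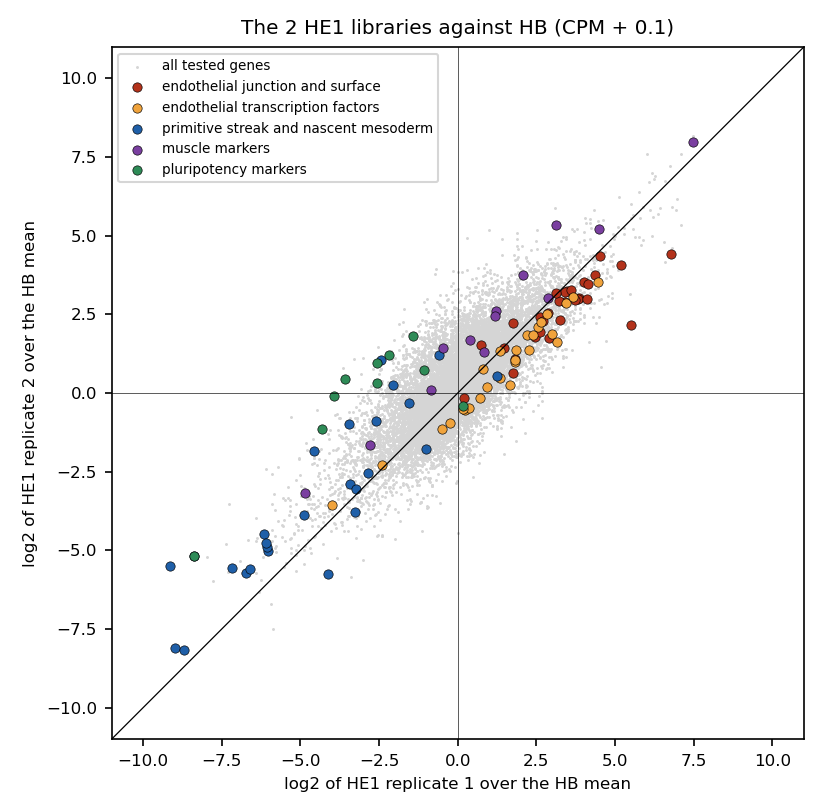
Log2 ratio to the HB mean (CPM + 0.1) of HE1 replicate 1 (x axis) and HE1 replicate 2 (y axis) for all tested genes (grey) and the members of 5 lists. The diagonal marks equal ratios. Endothelial junction and surface genes lie in the upper right, mostly below the diagonal, and primitive streak genes in the lower left, mostly above it, with list medians of 3.33 and 2.91 for endothelial junction and surface genes and of -4.36 and -3.82 for primitive streak genes.

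The antigens used in the sorts were compared with their RNA. Tek, which encodes TIE2, rose from 57.2 and 60.8 CPM in HB to 564 and 294 in HE1 (log2 fold change 2.86 ± 0.32, adjusted p = 1.6e-04). Kit, the stem cell factor receptor, had 73.2 and 69.3 CPM in HB and 146 and 72.9 in HE1 and was not called (adjusted p = 0.18). HE1 replicate 1 was 2-fold above HB and replicate 2 at the level of HB. Itga2b encodes CD41, which the sort excluded from the surface of HE1, and its RNA was nonetheless higher in HE1 than in HB, with 47.98 and 34.4 CPM in HB and 227 and 127 in HE1 (log2 fold change 2.10 ± 0.26, adjusted p = 2.7e-04). It held in both libraries, and the mean in HE2 was 487 CPM.

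Markers of blood cells were measured because HE1 is the stage before blood forms. Of 23 such genes, all were tested, 12 were called higher and 2 lower, against 12.7% and 8.19% of all tested genes. The count called lower is thus near the share over all genes. The summed level was 98.5 to 114 CPM in HB and 438 to 851 CPM in HE1. Of the 12, 9 held in both HE1 libraries and 10 kept the call with each library alone, and 10 were called both without HB replicate 1 and without HB replicate 2. The rise was led by embryonic haemoglobin. Hbb-bh1 had 4.59 and 4.53 CPM in HB and 279 and 136 in HE1 (log2 fold change 5.51 ± 0.39, adjusted p = 1.3e-05), Hba-x had 1.06 and 1.80 CPM in HB, 188 and 86.6 in HE1 (6.57 ± 0.58) and Hbb-y had 0.330 and 0.451 CPM in HB, 55.6 and 29.6 in HE1 (6.74 ± 0.75). In each, HE1 replicate 1 was the higher, and the means in HP were 2086, 1080 and 272 CPM. Klf1, a red cell regulator, rose at a low level (0.496 and 0.394 CPM in HB, 3.70 and 2.87 in HE1). Gfi1, a repressor of the endothelial programme, rose from 3.27 and 3.24 to 11.8 and 8.78 CPM (log2 fold change 1.66 ± 0.34, adjusted p = 0.0045). Defining genes of mature blood cells were near 0. Ptprc, the CD45 gene, was called higher, from at most 1 count in an HB library to 1.14 and 0.363 CPM in HE1, as was Cd53 (0.294 and 0.792 CPM in HE1), while Tyrobp had 0.168 and 0.132 CPM and Pf4 0.0420 and 0, where 0 stands for no count. The calls of Vav1 and Was, signalling genes of blood cells, were lost with replicate 2 alone (adjusted p = 0.082 and 0.12) and without HB replicate 1 (0.069 and 0.096) or 2 (0.16 and 0.066). The 2 genes called lower were Coro1a, an actin-binding protein of white cells (4.59 and 3.44 CPM in HB, 1.60 and 1.75 in HE1, -1.25 ± 0.36), and Epor, the erythropoietin receptor (12.9 and 10.4 in HB, 7.15 and 4.13 in HE1, -1.05 ± 0.26). Neither held in both libraries. Coro1a lost the call with replicate 1 or 2 alone (adjusted p = 0.089 and 0.074), Epor with replicate 1 alone (0.057), and both without HB replicate 1 (0.10 and 0.059). The regulators Gata1 (2.51 and 2.65 CPM in HB, 5.55 and 2.41 in HE1), Gfi1b (4.29 and 3.44 in HB, 6.05 and 3.20 in HE1), Myb (18.1 and 16.02 in HB, 22.6 and 7.13 in HE1) and Spi1 (3.93 and 5.63 in HB, 1.85 and 2.48 in HE1) were not called. HE1 replicate 1 was the higher in 19 of the 23 genes. The part of any blood cells in these values was not tested.

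Contractile and mesenchymal genes rose in HE1 as well. Of 14 muscle markers, 13 were tested, 8 rose and 2 fell, where 12.7% and 8.19% of all tested genes did. The summed level was 53.6 to 55.6 CPM in HB and 659 to 1060 CPM in HE1. Smooth muscle actin, Acta2, had 2.25 and 2.06 CPM in HB and 403 and 569 in HE1 (log2 fold change 7.82 ± 0.45, adjusted p = 4.4e-06), a fitted change of 226-fold, and the actin-binding Tagln had 11.6 and 7.04 CPM in HB, 211 and 349.6 in HE1 (log2 fold change 4.91 ± 0.45, adjusted p = 4.6e-05). Tnnt2, the cardiac troponin T gene, had 2.15 and 1.32 CPM in HB and 15.97 and 74.2 in HE1 (4.71 ± 0.85), which is far higher in replicate 2. Myl7, an atrial myosin light chain, fell from 11.5 and 15.99 to 0.378 and 1.42 CPM (-3.90 ± 0.57), as did Myocd, a co-activator of smooth muscle genes (11.3 and 14.6 CPM in HB, 1.81 and 4.03 in HE1, -2.14 ± 0.46). HE1 replicate 2 was the higher in all 14 muscle markers, Nppa with 0 and 0.033 CPM included. Of the genes called higher, Actc1, Cnn1 and Ttn lost the call with replicate 1 alone (adjusted p = 0.13, 0.10 and 0.20). All 3 lost it without HB replicate 2 as well (0.10, 0.061 and 0.26), and Actc1 and Cnn1 without HB replicate 1 (0.077 and 0.081), so that 5 and 6 muscle markers were then called higher in place of 8.

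Of 11 fibroblast and mesenchyme markers, 10 were tested, 6 rose and 2 fell, beside 12.7% and 8.19% of all tested genes. Collagen Col3a1 had 0.264 and 0.141 CPM in HB and 28.8 and 32.5 in HE1 (log2 fold change 7.24 ± 0.55, adjusted p = 1.8e-05) and periostin, Postn, had 0.297 and 0.169 CPM in HB, 25.5 and 39.7 in HE1 (log2 fold change 7.13 ± 0.55, adjusted p = 1.8e-05). Col1a1 rose from 46.7 and 45.7 to 176 and 670.3 CPM (3.19 ± 0.54) with a wide gap between the HE1 libraries, whereas Col1a2 rose from 19.2 and 21.1 to 154 and 132 (2.83 ± 0.22) with little. Pdgfra and Thy1 fell, the latter from 3.54 and 3.24 to 0.294 and 0.231 CPM, and Lum, with no count in HB, was called higher at only 0.462 and 0.330 CPM in HE1. That call was lost without HB replicate 1 (adjusted p = 0.094), without HB replicate 2 (0.12) and with HE1 replicate 2 alone (0.0501). Summed over the list, the level was 355 to 364 CPM in HB and 575 and 1264 CPM in HE1 replicates 1 and 2. The part of mesenchymal cells in these values was not tested.

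Pluripotency genes were among those with the largest ratios between the HE1 libraries. The 8 genes with the largest ratio of replicate 2 to replicate 1 were Iqcn, Dppa5a, Nanog, Dnmt3l, Sox2, Zfp42, Pou3f1 and Utf1, among genes with 9 CPM in either library. The largest ratio was that of Iqcn, which had 0.284 and 0.143 CPM in ES cells, 0.297 and 0.0282 in HB and 0.420 and 9.54 in HE1. Of all 296 genes that were at least 2-fold higher in replicate 2, 28.7% had their highest stage mean in ES cells, as did 28.6% of the 10660 genes, while 55.7% had it in HE1, against 21.5%. The mean of HE1 includes the library by which these genes were chosen. Nanog had 226 and 222 CPM in ES cells, 15.2 and 9.52 in HB and 0.715 and 11.6 in HE1, Sox2 had 348 and 341 CPM in ES cells, 7.30 and 2.11 in HB and 0.715 and 9.28 in HE1, and Pou5f1, the OCT4 gene, had 549 and 519.8 CPM in ES cells, 62.7 and 52.9 in HB and 2.82 and 26.2 in HE1. In HE1 replicate 1 all 3 lay below both HB libraries, while in replicate 2 Sox2 lay above them. Over the 10 pluripotency markers, the summed level was 474 to 476 CPM in HB, 51.6 CPM in HE1 replicate 1 and 145 CPM in replicate 2, which is 1.26% and 3.54% of the mean of the ES libraries. Most of the sum in HB was Tdgf1 (304 and 353 CPM), which is also on the primitive streak list. The other 9 markers summed to 172 and 121 CPM in HB and to 50.7 and 136 CPM in HE1, so that replicate 2 lay between the HB libraries. None of the 10 was at 0 in either HE1 library. The comparison of HE1 with HB called 1 of them lower, Tdgf1, and none higher (8.19% and 12.7% of all tested genes). With HE1 replicate 1 alone, 8 of the 10 had an adjusted p under 0.05 and a negative value, as did 10.5% of all genes, among them Pou5f1 (log2 fold change -4.35, adjusted p = 0.0044), Nanog (-4.10, 0.0011) and Zfp42 (-2.29, 0.0058), and with replicate 2 alone Zfp42 was called higher (1.19, adjusted p = 0.016). With replicate 2 alone Tdgf1 was the one marker called lower.

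Where replicate 1 was the higher, the 8 genes with the largest ratio were Lyve1, Fmo1, Clec14a, Cnr2, Slc18a2, Cavin2, Slc1a2 and Ednrb. Lyve1, a hyaluronan receptor of early and lymphatic endothelium, had 0.231 and 0.0563 CPM in HB and 10.9 and 0.990 in HE1, and Ednrb, an endothelin receptor, had 2.64 and 2.84 CPM in HB, 64.4 and 15.1 in HE1. All but Slc18a2 (17.1 and 15.8 CPM in HB, 60.03 and 12.1 in HE1) were called higher in HE1. Markers of endoderm were low in HE1, at 7.57 and 17.9 CPM summed over 12 genes against 50.3 and 24.2 in HB. Ttr and Alb had no count in either HE1 library. Of 9 tested, 3 were called lower and none higher, against 8.19% and 12.7% of all tested genes. HE1 replicate 2 was at least 2-fold above replicate 1 (as CPM + 0.1) in 6 of the 12, and replicate 1 above replicate 2 in 2. With replicate 2 alone Amn had a log2 fold change of 2.12. The part of the cells sorted in the differences between the HE1 libraries was not tested.

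**Figure D4:**
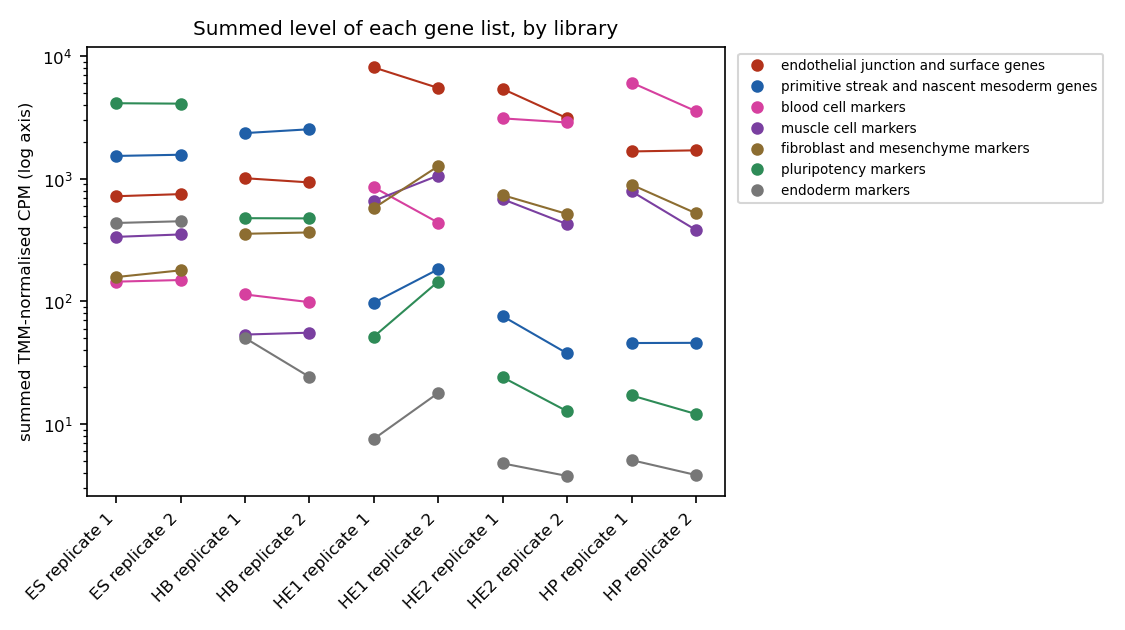
Summed TMM-normalised CPM (log axis) of 7 gene lists in each of the 10 libraries. Lines join the 2 libraries of a stage. Endothelial junction and surface genes reach 8060 and 5481 CPM in HE1 against 932 to 1008 in HB, and the pluripotency markers are at 51.6 and 145 CPM in HE1 against 474 to 476 in HB, where Tdgf1 alone has 304 and 353 CPM.

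Changes were also ranked without regard to the lists, among called genes with a mean of at least 9 CPM in HB or HE1. These genes also had to hold in both HE1 libraries and to have a symbol in the authors' matrix. The 12 largest increases, out of 904 genes that met these criteria, included Col8a1, Cryab, Anxa1, Hba-a1, Acta2, Ccn4, Col3a1, Postn, Megf10, Prnd and Igfbp7. Anxa1, a calcium-dependent membrane protein, had 0.264 and 0.0563 CPM in HB and 35.9 and 50.9 in HE1, and Cryab, a small heat shock protein, had 0.0330 and 0.113 CPM in HB, 31.02 and 49.5 in HE1. Ccn4, a matricellular protein, rose from 0.429 and 0.394 to 33.2 and 98.6 CPM (log2 fold change 7.32 ± 0.62, adjusted p = 3.1e-05). Prnd, a prion-like protein, had 0.397 and 0.366 CPM in HB and 60.2 and 34.2 in HE1. Replicate 1 was the higher of the HE1 pair for Prnd, as it was for Hba-a1. Col8a1 had 1 count in HB replicate 1 and none in replicate 2, against 8.32 and 14.7 CPM in HE1, and Hba-a1, an adult globin gene with a near-identical copy to which fragments may be shared, had 0 and 0.0563 CPM in HB, 11.01 and 7.46 in HE1.

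The 12 genes with the largest decreases, of 562 that met the same criteria, were Mesp1, Mixl1, Cdh8, Ndufa4l2, Kcnc1, Amer3, Gsc, Lhx1, Tmem28, Nxph4, Eomes and Vstm2b. Besides the mesoderm regulators these include Cdh8, a cadherin best known from brain (12.2 and 15.2 CPM in HB, 0.126 and 0.0330 in HE1), Kcnc1, a voltage-gated potassium channel (39.8 and 44.9 in HB, 0.631 and 0.132 in HE1), and Ndufa4l2, a mitochondrial protein induced in low oxygen (29.3 and 33.5 in HB, 0.0420 and 0.396 in HE1). Vstm2b fell from 166 and 177 to 1.47 and 3.37 CPM (log2 fold change -6.12 ± 0.40, adjusted p = 8.2e-06). For all 12 the higher HE1 library was at least 2-fold below the lower HB library, by the choice of the genes.

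Genes of the cell cycle shifted by less than 2-fold in most cases. Of 23 genes, 3 were called higher and 2 lower, which is near the shares over all tested genes (12.7% higher and 8.19% lower), so that these counts do not set the list apart. The cyclin-dependent kinase inhibitor genes Cdkn1a (46.8 and 44.1 CPM in HB, 197 and 201 in HE1), Cdkn2a (1.35 and 2.22 in HB, 5.84 and 7.03 in HE1) and Cdkn2b (0.826 and 0.760 in HB, 5.55 and 12.5 in HE1) rose by 2.13 ± 0.27, 1.84 ± 0.36 and 3.51 ± 0.48, and the call held with each HE1 library. Ccnd2, a cyclin of early G1, fell from 136 and 167 to 59.1 and 52.2 CPM (-1.44 ± 0.20) and Mcm7, a part of the replicative helicase, from 395 and 412 to 192 and 152 (-1.23 ± 0.20). With no fold threshold 15 of the 23 passed the test with a negative value, as did 14.8% of all tested genes. With HE1 replicate 1 alone 4 did, against 10.5% of all genes, and with replicate 2 alone 16, against 16.8%. At 2-fold or more, 11 genes of the list were called lower with replicate 2 alone in place of 2. The proliferation marker Mki67 had 649.5 and 686 CPM in HB and 569.9 and 326 in HE1 (log2 fold change -0.58 ± 0.25, adjusted p = 0.11), and was called lower with replicate 2 alone (adjusted p = 0.0076).

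Of the genes described above, 12 (Mecom, Meis1, Epas1, Nr2f2, Foxc2, Clec14a, Gja4, Sema3g, Fgfr3, Hba-x, Tnnt2 and Cnn1) are also on the study's list of genes with enhancers active in both HB and HE that rise from a low level in HB. All of them but Foxc2 were called higher here. That list was chosen with the expression of these same libraries, so that the direction is not independent evidence.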

How the data were processed

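Nuclear RNA was prepared with a stranded, rRNA-depleted protocol. The authors removed rRNA reads (RiboDetector), trimmed the rest (Trimmomatic), mapped them on mm10 using Hisat2 (v2.2.1) and counted fragments per gene with featureCounts (v2.0.1, Ensembl release 102, reverse-stranded, with fragments over several genes counted on each). These deposited counts are not normalized and cover 55487 genes. A deposited matrix holds a score for each stage in 15686 genes, and only its pairs of identifier and symbol were used. Other genes were named from a reference table of Ensembl identifiers.

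Counts of all 10 libraries were fitted in edgeR (v4.0.16, R v4.3.3) after filterByExpr and TMM, with stage as the only term and 5 residual degrees of freedom. Calls needed an adjusted p below 0.05 and a 2-fold change. Ratios of CPM used an offset of 0.1, and a gene held in both HE1 libraries when each lay at least 2-fold beyond both HB libraries. The named genes are the 4 markers, list members, the 12 largest changes in each direction among called genes with a symbol in the matrix, a mean of at least 9 CPM and both HE1 libraries holding, and the 8 largest ratios between the HE1 libraries in each direction. Fits with 1 library left out assume that the lone library varies like the other stages. The members, lists and motifs were chosen with earlier results of these data known. The scripts were checked on simulated data. Alternatives were limma-voom (v3.58.1), DESeq2 (v1.42.0), no TMM, no filter, only the 4 libraries, a replicate block, library sizes leaving out the 20 most counted genes, other fold thresholds, 30 CPM, and leaving out each library. Promoter letters came from RefSeq (GRCm38.p6), where 188 of 268 list members have a window. Sox17 and Cdh5 were not analysed there. One of the largest increases and 1 blood marker are not reported here.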

Additional observations from a re-analysis of the deposited data

How the results depend on the processing

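With 2 libraries per stage the spread rests on few libraries, and the HE1 libraries differed in their content. The number of genes called higher was 2872. A threshold of 4-fold gave 1743 higher and 851 lower genes, no fold threshold gave 3355 lower genes, and leaving out 1 library gave between 1469 and 3377 higher genes, with 1857 without HB replicate 1 and 1469 without HB replicate 2. For the genes lower this range was 1335 to 2176. With a 4-fold threshold, 5 lateral plate and cardiac transcription factors were lower in place of 8. All other alternatives kept both counts and those of genes called higher in the endothelial lists and lower in the primitive streak list within 1.5 times. Among the named genes, 28 lost the call without HB replicate 1 and 34 without HB replicate 2, and 18 each without HE1 replicate 1 or 2. Over the fits that left out 1 library, the log2 fold change ran from -2.69 to 1.21 for Sox2, from -2.29 to 1.19 for Zfp42 and from -1.11 to 0.72 for Tfcp2l1, with the lowest value of each without HE1 replicate 2. The cause was not tested. No other scaling moved the median of all genes by more than 0.042 on the log2 scale. The deviations of same-numbered libraries correlated at -0.21 between HB and HE1, and between -0.32 and 0.21 over the pairs of stages, so that the numbers did not pair the libraries throughout. A term for the replicate number (block) gave 2494 higher and 1682 lower genes over the 10 libraries, and 2380 and 1525 over the 4. The crossed pairing, chosen after seeing the data, gave 2944 and 1786. With genes at 30 CPM or above, 63 and 111 genes differed 2-fold between the HE1 libraries in place of 296 and 222.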

Other observations

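Several of the genes that rose from HB to HE1 had a higher level in both ES libraries than in both HB libraries, a difference that was not tested here. The adhesion gene Pecam1 had 158 and 164 CPM in ES cells, 39.3 and 32.9 in HB and 745 and 491 in HE1. Klf2 had 192 and 188 CPM in ES cells, 20.9 and 12.6 in HB and 134 and 61.4 in HE1, and Mcam, the CD146 gene, had 109 and 114 CPM in ES cells, 9.78 and 7.63 in HB and 97.95 and 84.1 in HE1. Of the matrix genes, Hspg2 had 1956 and 2140 CPM in ES cells, 502 and 522 in HB and 1968 and 1814 in HE1 and Col18a1 had 1195 and 1264 CPM in ES cells, 275 and 238 in HB and 1469 and 1048 in HE1. Cdh5 (0.816 and 0.516 CPM in ES cells), Cd93 (0.195 and 0.115) and Erg (0.124 and 0.115) were near or under 1 CPM there. These genes were picked after their values were seen.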
